A study of Mus musculus with 3 samples.

Results

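Haem oxygenase 1 and 7 further genes of the NRF2 antioxidant response were followed across the cells of perilesional mouse brain in 3 single-cell RNA libraries. The 8 genes, out of 55357 listed in each count matrix, were taken by name: Hmox1, Srxn1, Nqo1, Gclm, Gclc, Txnrd1, Slc7a11 and Nfe2l2. All cells came from left perilesional tissue of male C57BL/6 mice aged 6 to 8 weeks. Sham mice (labelled sham in the titles and control in the design) carried no TBI (traumatic brain injury) in the labels, the TBI+PBS mice had TBI and 3 days of phosphate-buffered saline, and the TBI+IL-25 mice had TBI and 1 µg of interleukin-25 each, first within 30 min of injury and then daily for 3 days. There was 1 library a group, and the number of animals behind a library is not given, so what follows sets single libraries, not conditions, against each other. No p-value is given for that reason, and every interval is a 95% interval of counting error alone.

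NRF2, the product of Nfe2l2, is a transcription factor that KEAP1 normally holds in the cytoplasm and hands to a ubiquitin ligase for degradation. Oxidants and electrophiles modify KEAP1, NRF2 then builds up, pairs with small MAF proteins and binds antioxidant response elements at genes for glutathione supply, thiol repair and haem breakdown. BACH1 occupies the same elements as a repressor until haem binds it, which makes Hmox1 a gene of haem load as well as of oxidant stress. In brain, NRF2 activity is best known from astrocytes, which supply neurons with glutathione precursors, while haem oxygenase 1 is known from microglia and macrophages that clear blood after injury.

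Promoter sequence is shown for 5 of the genes, of which 4 hold at least 1 of the motifs searched and Nqo1 holds none. Nfe2l2 also holds a motif but is not shown. Windows of 300 bases, from 250 before to 50 after a gene's start, came from RefSeq on GRCm38.p6, which matched 6 of the 8 genes with 8 windows; Hmox1 and Gclc were not among them. Capitals mark every match of the antioxidant response element TGACNNNGC, the AP-1 motif TGANTCA, the hypoxia response motif ACGTG and the amino acid response element TGATGCAA, searched on both strands. Each sequence runs 5′ to 3′ on the strand of the gene.
Srxn1, chr2:152105274-152105573, plus strand: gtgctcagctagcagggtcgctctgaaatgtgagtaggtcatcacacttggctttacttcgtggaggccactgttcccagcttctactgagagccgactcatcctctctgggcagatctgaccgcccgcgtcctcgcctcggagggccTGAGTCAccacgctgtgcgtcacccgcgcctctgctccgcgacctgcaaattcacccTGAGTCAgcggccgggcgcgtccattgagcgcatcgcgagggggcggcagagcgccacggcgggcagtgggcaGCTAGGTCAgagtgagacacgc
Gclm, chr3:122245307-122245606, plus strand: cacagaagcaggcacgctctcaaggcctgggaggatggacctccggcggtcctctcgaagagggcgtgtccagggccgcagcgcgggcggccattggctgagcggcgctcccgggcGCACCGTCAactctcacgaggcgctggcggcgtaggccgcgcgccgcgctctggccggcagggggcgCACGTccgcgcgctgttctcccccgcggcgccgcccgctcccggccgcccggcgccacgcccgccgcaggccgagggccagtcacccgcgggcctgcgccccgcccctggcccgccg
Txnrd1, the 2nd of 3 windows, chr10:82858956-82859255, plus strand: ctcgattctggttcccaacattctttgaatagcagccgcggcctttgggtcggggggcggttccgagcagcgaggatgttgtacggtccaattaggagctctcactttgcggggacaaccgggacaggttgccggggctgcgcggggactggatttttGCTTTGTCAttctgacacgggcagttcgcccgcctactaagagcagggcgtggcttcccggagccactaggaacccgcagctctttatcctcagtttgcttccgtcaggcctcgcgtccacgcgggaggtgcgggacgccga
Slc7a11, chr3:50443564-50443863, minus strand: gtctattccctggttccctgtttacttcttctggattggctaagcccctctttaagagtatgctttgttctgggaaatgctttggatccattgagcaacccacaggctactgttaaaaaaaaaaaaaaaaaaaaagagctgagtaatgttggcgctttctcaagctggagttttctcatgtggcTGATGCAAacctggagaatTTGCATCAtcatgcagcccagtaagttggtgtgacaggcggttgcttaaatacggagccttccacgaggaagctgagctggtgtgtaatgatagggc
Nqo1, chr8:107403156-107403455, minus strand: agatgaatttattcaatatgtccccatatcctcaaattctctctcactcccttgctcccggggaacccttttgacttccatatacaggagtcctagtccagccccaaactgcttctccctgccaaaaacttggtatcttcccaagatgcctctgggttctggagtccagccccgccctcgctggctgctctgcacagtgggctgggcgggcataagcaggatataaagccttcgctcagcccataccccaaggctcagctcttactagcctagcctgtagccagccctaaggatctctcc
The antioxidant response element lay 29 bases after the start of Srxn1, 134 bases before that of Gclm and 92 bases before that of the Txnrd1 window shown, each on the minus strand, and it occurred in 12.4% of the 32851 RefSeq windows of this length. Windows 1 and 3 of Txnrd1, not shown, held 0 matches of each motif. Srxn1 also held the AP-1 motif at 102 and 45 bases before its start, a motif of 7.81% of windows, and Gclm held the hypoxia motif, found in 19.6%. Slc7a11, known in mouse as a target of the amino acid stress factor ATF4 as well as of NRF2, held the amino acid response element at 66 and 47 bases before its start, a match that 0.895% of windows had. The window of Nfe2l2, not shown, held the antioxidant response element 240 bases before its start. No 2 matches of different motifs overlapped. A match describes letters in a window and not binding.

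The sham library held 39536447 UMIs (unique molecular identifiers, 1 for each captured RNA molecule) over 8939 barcodes, the TBI+PBS library 58148289 over 10643 and the TBI+IL-25 library 61372408 over 14222. After filters 8720, 10303 and 13527 cells remained, with a median of 4112, 4667 and 3839 UMIs. Clusters were named from marker genes, and 5000, 4593 and 5531 cells were microglia-like and 3290, 4215 and 6319 astrocyte-like in sham, TBI+PBS and TBI+IL-25. The clusters behind a class differed by library: microglia-like cells lay mostly in clusters 0 and 4 in sham, 2 and 7 in TBI+PBS, and 6 and 2 in TBI+IL-25, and astrocyte-like cells in clusters 5 and 1, then 10 and 1, then 3 and 8. Cluster 14 stayed unnamed, although all 10 astrocyte markers were present, because the ependymal marker Tm4sf1 was among its leading genes; it held 0.0115%, 3% and 2.67% of cells. The TBI+IL-25 library stood apart in haemoglobin RNA, at 0.13 CPM (a gene's UMIs scaled to a common total of the class or library) against 98.9 in sham and 111 in TBI+PBS, in ribosomal RNA, at 1.22% of UMIs against 0.139% and 0.159%, and in the Cell Ranger version, so these and the treatment cannot be told apart. No pair of libraries shared more than 0.366% of barcodes.

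Hmox1, which encodes the enzyme that opens haem into biliverdin, carbon monoxide and iron, was far more abundant in both injured libraries than in sham. Over all kept cells it stood at 27.8 CPM in sham (26.1 to 29.5), 370 in TBI+PBS (365 to 375) and 499 in TBI+IL-25 (493 to 504). The injured libraries were above sham 13.3-fold (12.5 to 14.2) and 18-fold (16.9 to 19.1), and they differed from each other by 1.35-fold (1.32 to 1.37). Of the 8 genes, 2 were at least 2-fold higher in TBI+PBS than in sham (Hmox1 and Srxn1) and none 2-fold lower, where 8.64% and 6.24% of all genes tested were. Against TBI+PBS, TBI+IL-25 had 1 of 8 at least 2-fold higher (Srxn1; 5.48% of genes) and none lower (9.49%), and against sham 3 of 8 higher (Hmox1, Srxn1 and Txnrd1; 11.7%) and none lower (18.3%). RNA of haemoglobin, the haem protein of red cells, stood at 98.9, 111 and 0.13 CPM in sham, TBI+PBS and TBI+IL-25, and its part in these Hmox1 values was not tested. The comparisons share libraries, so their values are given side by side.

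**Figure D1:**
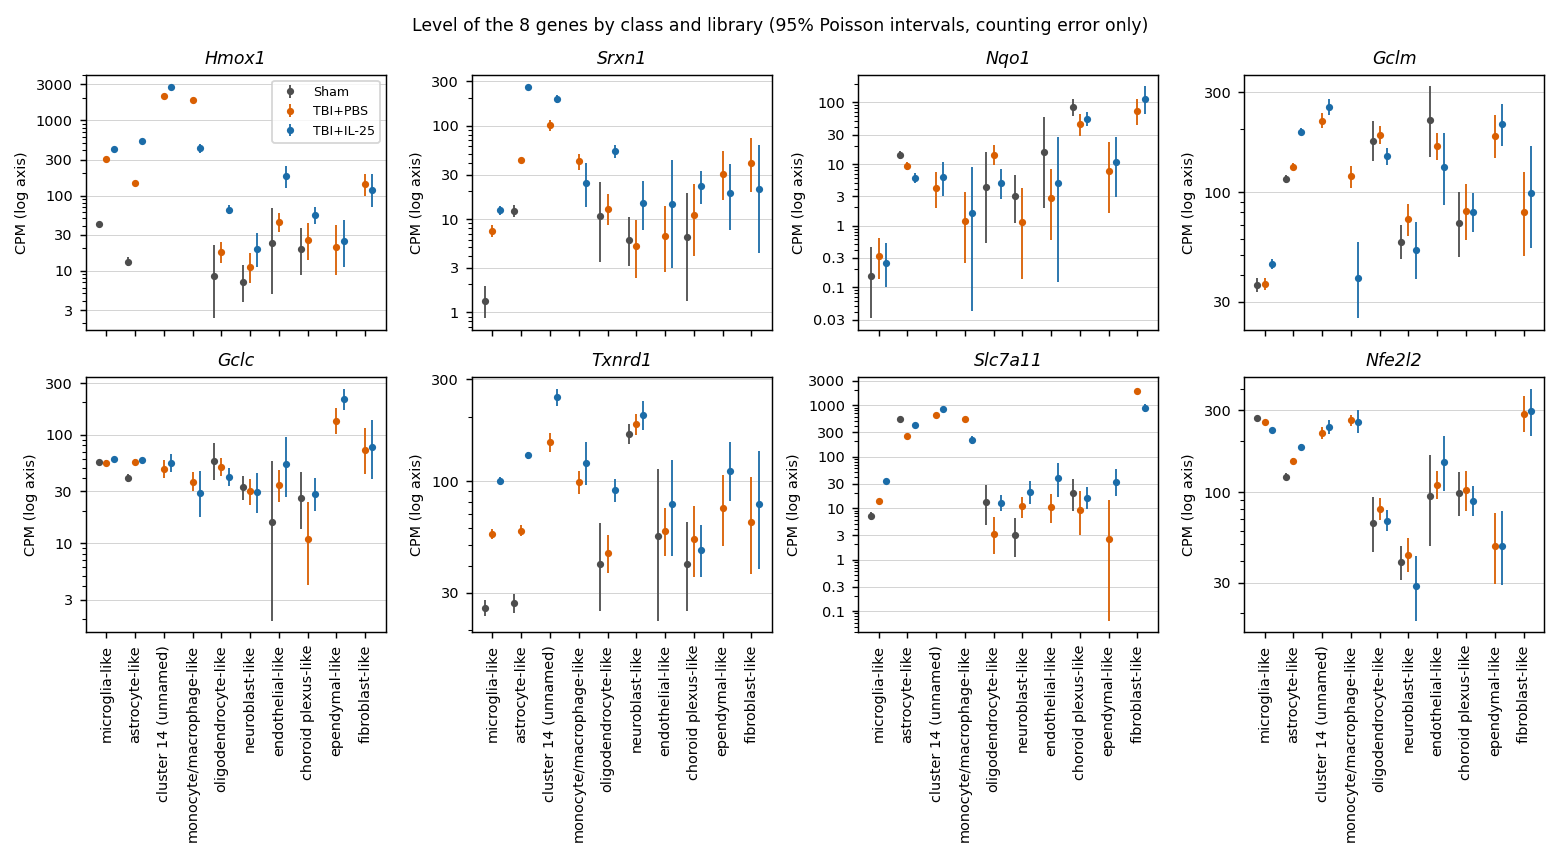
Level of each of the 8 genes in CPM (log axis) by class, for sham (grey), TBI+PBS (orange) and TBI+IL-25 (blue); points are UMIs summed over a class of at least 20 cells and bars are exact Poisson 95% intervals, with sums of 0 not drawn. Hmox1 reached 2094 and 2773 CPM in cluster 14, while Nfe2l2 in microglia-like cells stayed between 231 and 271 CPM.

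The cells that held the Hmox1 RNA differed between libraries. In sham, microglia-like cells held 78% of all Hmox1 UMIs and astrocyte-like cells 18.6%. In TBI+PBS the microglia-like share was 37.7%, while cluster 14 held 25.3% of the UMIs in 3% of the cells and monocyte/macrophage-like cells 22.5% in 2.42% of the cells. In TBI+IL-25 microglia-like cells held 42%, astrocyte-like cells 38%, cluster 14 17.7% and monocyte/macrophage-like cells 0.932%. The macrophage-like share was thus larger in TBI+PBS and the astrocyte-like share larger in TBI+IL-25.

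**Figure D2:**
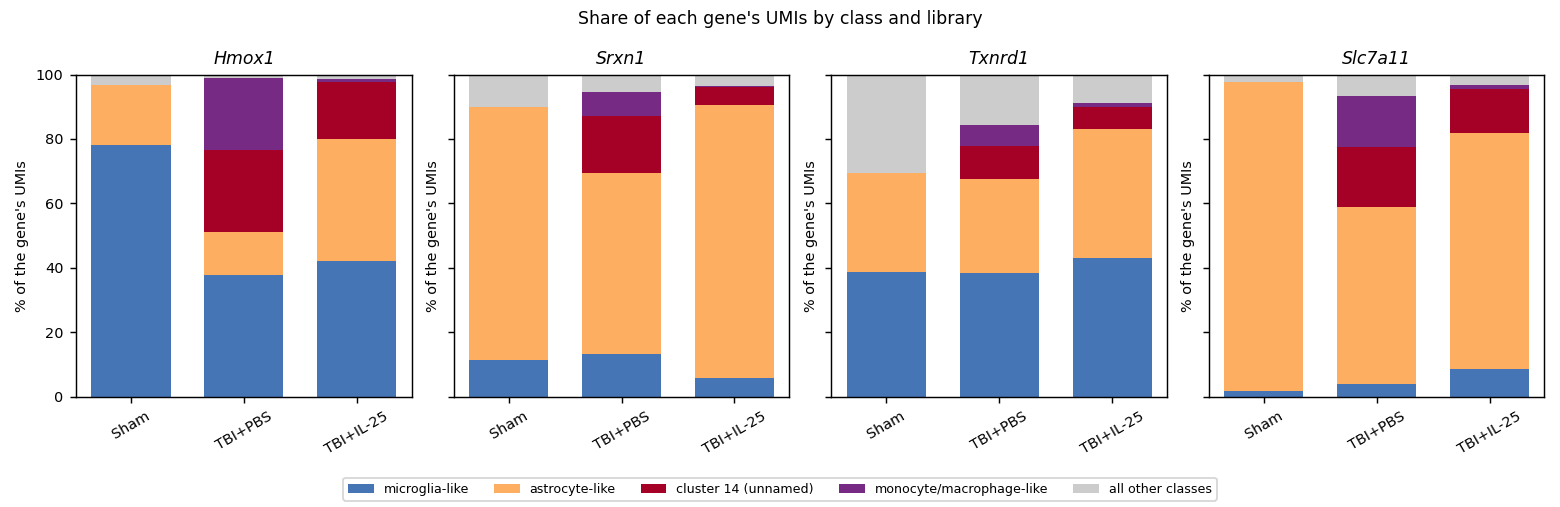
Share of a gene's UMIs (%, bars stacked to 100) that each class held in sham, TBI+PBS and TBI+IL-25, for Hmox1, Srxn1, Txnrd1 and Slc7a11. Monocyte/macrophage-like cells held 22.5% of the Hmox1 UMIs in TBI+PBS against 0.932% in TBI+IL-25, and astrocyte-like cells 13.5% and 38%.

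Microglia-like cells, the resident macrophages of the brain, carried Hmox1 at 41.8 CPM in sham, at 307 in TBI+PBS and at 421 in TBI+IL-25. TBI+PBS was 7.34-fold above sham (6.83 to 7.90), TBI+IL-25 10.1-fold above sham (9.38 to 10.8), and the injured libraries differed by 1.37-fold (1.33 to 1.41). The shares of cells with an Hmox1 UMI were 12.3%, 30.8% and 41.2%, and 5.67%, 13.2% and 24.2% when each cell was thinned to 1500 UMIs, which left out 344, 189 and 322 shallower cells. Cells with 5 or more Hmox1 UMIs made up 0.24%, 3.29% and 11%. The distribution within the class was uneven: a single TBI+PBS cell of cluster 16 held 872 of the 7719 Hmox1 UMIs, and without it TBI+PBS stood at 273 CPM, 6.52-fold above sham (6.06 to 7.02), with TBI+IL-25 1.54-fold above it.

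Within TBI+PBS most microglia-like Hmox1 came from cluster 16, led by Spp1, Mmp12 and Lpl. It held 5.42% of the class's cells and 65.8% of its Hmox1 UMIs at 2073 CPM. Without the cell of 872 Hmox1 UMIs it stood at 1737 CPM, and the next highest microglia-like cell of that library held 599. In TBI+IL-25 cluster 16 was at 1409 CPM with 4.34% of cells and 20.2% of the UMIs, and cluster 6, led by Hcar2, Tnf and Ccl12, held 36.3% of cells and 59.6% of the UMIs at 593 CPM. Cluster 6 had stood at 246 CPM in TBI+PBS, with 9.99% of cells and 12.6% of the UMIs. Cluster 16 held the microglia markers at a summed 11787 CPM in TBI+PBS against 7626 in TBI+IL-25, below the 21870 and 17809 of cluster 6, and 9 and 8 of 10 monocyte/macrophage markers at a summed 471 and 377 CPM, against 15000 and 14503 in the monocyte/macrophage-like class. Border-associated macrophage markers summed to 650 and 347 CPM in cluster 16, with a UMI for 7 and 5 of 9, and the part of such cells in its Hmox1 was not tested.

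The largest sham microglia-like cluster, cluster 0, had 35.5 CPM of Hmox1 in sham, then 58.1 with TBI+PBS and 79.7 with TBI+IL-25. Held to 1 cluster, the differences from sham were thus smaller than over the class: in cluster 0 TBI+PBS was 1.64-fold above sham (1.34 to 1.99) and TBI+IL-25, with 135 cells, 2.24-fold (1.53 to 3.21). Over the 5 microglia-like clusters with at least 50 cells in both libraries, the TBI+PBS to sham ratio ran from 0.83 to 1.76, with the interval above 1 in 3, and the TBI+IL-25 to sham ratio from 2.05 to 4.12, above 1 in 5 of 5. Of 8 clusters that both injured libraries filled, the interval of TBI+IL-25 against TBI+PBS was above 1 in 5 and below 1 in 1, cluster 16, at 0.679-fold. The cluster 16 ratio includes the TBI+PBS cell with 872 Hmox1 UMIs. Naming cells by their own marker score in place of their cluster moved the class ratios to 2.70 for TBI+PBS against sham and 2.84 for TBI+IL-25 against TBI+PBS.

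**Figure D3:**
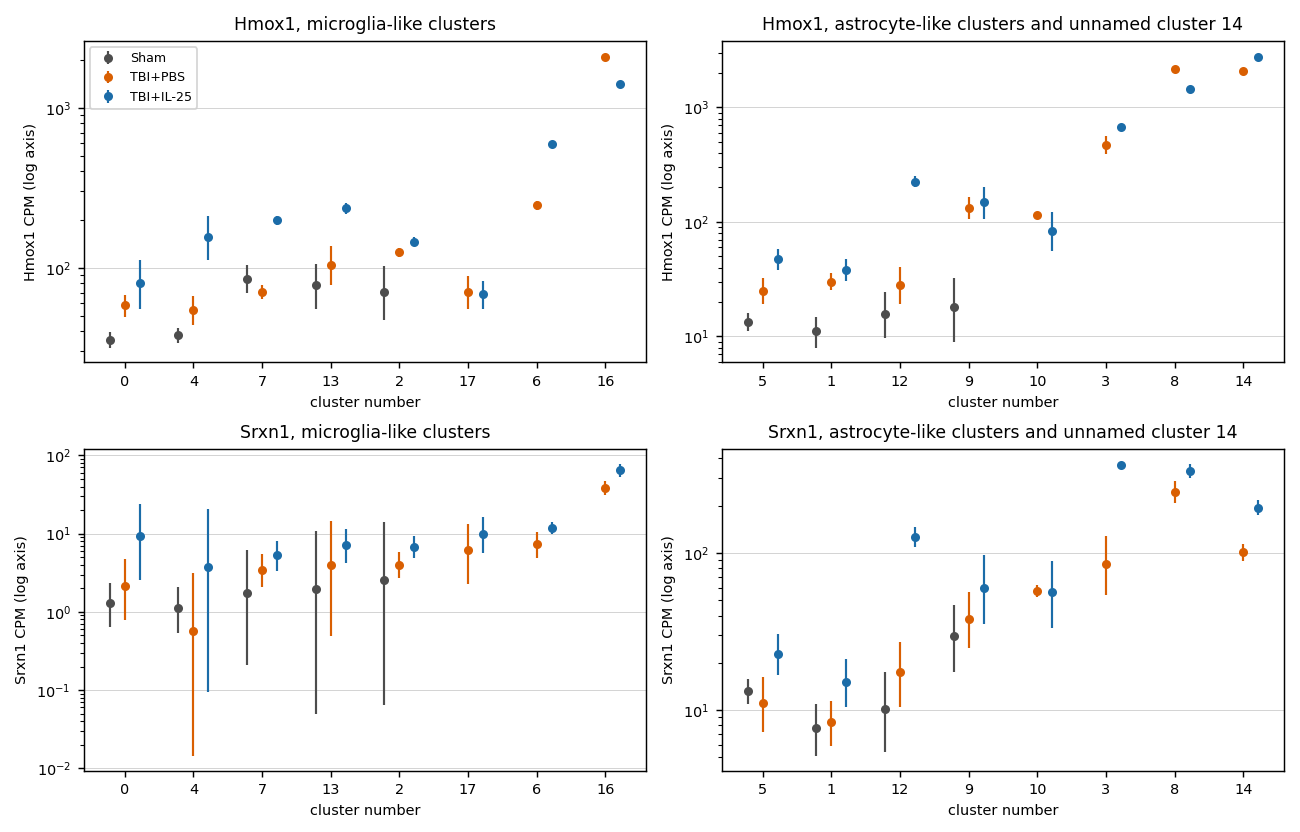
Hmox1 (top) and Srxn1 (bottom) in CPM (log axis) in each microglia-like cluster (left) and each astrocyte-like cluster and cluster 14 (right), for the 3 libraries; bars are exact Poisson 95% intervals, and a library is drawn where it had at least 50 cells and a UMI. Hmox1 was at 1409 CPM or more in clusters 16, 8 and 14 of both injured libraries, which sham did not fill.

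Astrocyte-like cells started from less Hmox1 than microglia-like cells in sham and ended above them in TBI+IL-25. The gene stood at 13.3 CPM in sham (196 UMIs), 149 in TBI+PBS (2765 UMIs) and 536 in TBI+IL-25 (10643 UMIs). TBI+PBS was 11.3-fold above sham (9.75 to 13.1), TBI+IL-25 3.59-fold above TBI+PBS (3.44 to 3.74) and 40.4-fold above sham (35.1 to 46.8). A UMI was found in 5.5%, 22.7% and 41.8% of cells, and after thinning in 2.09%, 9.44% and 30.3%, with 612, 943 and 1720 shallower cells left out. Those left out include most TBI+PBS cells of cluster 8, which held 46.8% of the class's Hmox1 UMIs in that library. Neuroblast-like cells, the class taken for background, had a UMI in 1.33%, 1.27% and 1.55% of thinned cells and in 5.18%, 7.31% and 8.57% of all. Their median depth was 6452, 5277 and 4688 UMIs against 4512, 4141 and 2848 in astrocyte-like cells. By share of cells, sham astrocyte-like Hmox1 thus lay close to that background and the injured libraries above it. Free RNA at the scale of the microglia markers in astrocyte-like cells (6.26%, 6.23% and 4.76% of their library level) would give 1.74, 23.1 and 23.7 CPM of Hmox1. The class's 13.3, 149 and 536 CPM lay above that in each library, so for sham these backgrounds differ.

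Astrocyte-like Hmox1 also differed by cluster. In TBI+PBS the cells of cluster 8 (led by Lcn2, Tgm1 and Hspb1, median depth 986 UMIs) had 2179 CPM and gave 46.8% of the class's Hmox1 UMIs from 10.9% of its cells, and in TBI+IL-25 1445 CPM and 16.4% from 19.9%. Cluster 3, led by Lif, Il11 and Flnc, held 43.9% of the TBI+IL-25 astrocyte-like cells and 78.1% of their Hmox1 UMIs at 675 CPM, and only 1.3% of the TBI+PBS cells, at 471 CPM. Cluster 14 stood at 2094 and 2773 CPM, with a UMI in 89.3% and 93.9% of its cells and 5 or more in 60.5% and 73.7%. It held the astrocyte markers at a summed 23223 and 22162 CPM, close to the 21636 of cluster 5 in sham. It also held all 10 microglia markers, at a summed 1530 and 829 CPM against 21870 and 17809 in cluster 6.

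**Figure D4:**
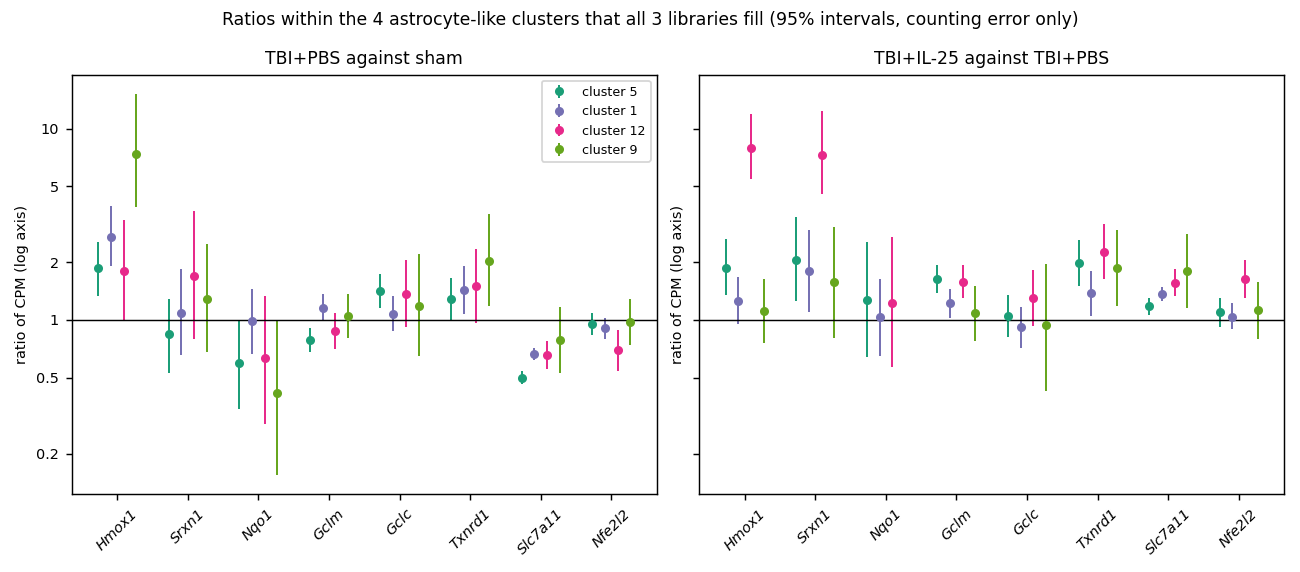
Ratio of CPM (log axis) for each gene within the 4 astrocyte-like clusters that all 3 libraries filled with at least 50 cells, for TBI+PBS against sham (left) and TBI+IL-25 against TBI+PBS (right); bars are 95% intervals, and genes with under 20 UMIs in a pair are not drawn. Cluster 12 had Hmox1 at 7.96 and Srxn1 at 7.3 in TBI+IL-25 against TBI+PBS, while Slc7a11 lay below 1 in TBI+PBS against sham in each cluster.

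Within the 4 astrocyte-like clusters present in all libraries, Hmox1 was 1.8 to 7.35-fold higher in TBI+PBS than in sham, with the interval above 1 in 3, and 3.44 to 14.3-fold higher in TBI+IL-25 than in sham, above 1 in 4 of 4. Between the injured libraries the ratio of 7 clusters ran from 0.663 in cluster 8 to 7.96 in cluster 12 (5.5 to 11.9), above 1 in 3 and below 1 in 1. In the most shared cluster, cluster 1, the values were 11.1, 30.1 and 38 CPM, or 2.72-fold and 1.26-fold. The class ratio of TBI+PBS to sham was 6.15 without the shallow clusters 8 and 9, 22.8 with cells weighted equally, 27.4 with classes from marker scores and 28.6 with cluster 14 counted as astrocyte-like. That of TBI+IL-25 to TBI+PBS was 6.01, 1.96, 1.99 and 1.90 in the same order and 1.86 at the lower clustering resolution. Its size thus rests on which cells are called astrocyte-like and on how cells are weighted.

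Monocyte/macrophage-like cells, whose origin in blood or at the brain borders was not tested, went the other way between the injured libraries. Their Hmox1 was 1841 CPM over 249 TBI+PBS cells and 424 CPM over 107 TBI+IL-25 cells, 0.23-fold (0.203 to 0.261), and the shares of cells with a UMI were 77.1% and 45.8%. Sham had 10 such cells with 3 Hmox1 UMIs, too few for a comparison. Of 7 members tested in this class, 3 were at least 2-fold lower in TBI+IL-25 (Hmox1, Gclm and Slc7a11), where 9.78% of genes were, and none was 2-fold higher (4.46%). Arg1 was level at 1745 and 1797 CPM and microglia markers at a summed 1736 and 1807, while the 9 border-associated macrophage markers summed to 2756 and 988 CPM and Spp1 stood at 5301 and 1170; their part in the Hmox1 difference was not tested. With cells weighted equally the Hmox1 ratio was 0.365 and with marker-score classes 0.432. The other 2 calls were each lost under 1 of these settings: Gclm was 0.604 with marker-score classes and Slc7a11 0.53 with cells weighted equally.

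In the remaining classes Hmox1 rested on fewer UMIs. Oligodendrocyte-like cells had 8.59, 17.9 and 65.2 CPM, with TBI+IL-25 3.64-fold above TBI+PBS (2.57 to 5.29), and endothelial-like cells 23.7, 44.8 and 180, 4.02-fold above (2.54 to 6.31) but 1.43-fold with doublets kept. Free RNA at the scale of the microglia markers would give oligodendrocyte-like cells 0.925, 27.9 and 37.5 CPM and endothelial-like cells 5.75, 37.1 and 95.1, so neither class stood clear of background in TBI+PBS. Neuroblast-like cells had 7.04, 11.3 and 19.8 CPM, and TBI+IL-25 was 2.81-fold sham with the interval above 1. Free RNA would give them 2.56, 32.2 and 23.6 CPM, so their levels in the injured libraries lay below it. Choroid plexus-like cells had 19.4, 25.8 and 54.6 CPM. Neutrophil-like cells, of which sham had 0 among 8720 cells, had 167 and 276 CPM after injury. The first value rests on 5 UMIs over 12 TBI+PBS cells, too few for a comparison. The second rests on 30 UMIs over 47 TBI+IL-25 cells. Free RNA would give those cells 225 CPM, so their level lay close to background.

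Srxn1 encodes sulfiredoxin, which restores overoxidised peroxiredoxins, and its RNA was mainly astrocyte-like: that class held 78.6% of the sham UMIs, 56.1% of the TBI+PBS and 84.8% of the TBI+IL-25 UMIs. Astrocyte-like cells had 12.2 CPM in sham (180 UMIs), 42.6 in TBI+PBS (789 UMIs) and 259 in TBI+IL-25 (5148 UMIs). TBI+PBS was 3.5-fold above sham (2.98 to 4.14), TBI+IL-25 6.08-fold above TBI+PBS (5.64 to 6.56) and 21.3-fold above sham (18.4 to 24.8). After thinning, 1.64%, 4.83% and 22.3% of the cells had a UMI. In contrast to Hmox1, the larger step lay between the injured libraries.

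By cluster, Srxn1 in TBI+IL-25 came to 86.2% from cluster 3 at 361 CPM, a cluster whose leading genes include Srxn1 itself, so this level is part of how the cluster was formed. Cluster 8 had 246 CPM in TBI+PBS against 334 in TBI+IL-25, and cluster 14 had 101 and 194, a ratio of 1.93 (1.63 to 2.27). Within the 4 clusters that all libraries filled, the TBI+PBS to sham ratio was 0.84 to 1.7 and its interval was above 1 in 0 of 4. The TBI+IL-25 to TBI+PBS ratio of 7 clusters was 0.977 to 7.3, with the interval above 1 in 5. Those 7 include clusters 3, 8 and 10, which sham did not fill, so the counts cover unlike sets of clusters. Within cluster 1 the 3 class ratios became 1.09 for TBI+PBS against sham, 1.81 for TBI+IL-25 against TBI+PBS and 1.98 for TBI+IL-25 against sham. Cluster 12, led by Crym and Six3, had 10.2, 17.4 and 127 CPM, 7.3-fold between the injured libraries (4.55 to 12.4). At the lower clustering resolution the class ratio of TBI+IL-25 to TBI+PBS was 3.01 and that to sham 6.76. In microglia-like cells Srxn1 was scarce, at 1.32, 7.43 and 12.5 CPM (26, 187 and 349 UMIs). Free RNA at the scale of the astrocyte markers would give 0.42, 1.11 and 5.76 CPM there. Microglia-like Srxn1 was 5.62-fold higher in TBI+PBS than in sham (3.71 to 8.82) but 1.66-fold within cluster 0 (0.504 to 4.89), with 50.8% of the TBI+PBS UMIs in cluster 16. Oligodendrocyte-like cells had 10.7, 12.9 and 53.4 CPM, 4.16-fold higher in TBI+IL-25 than in TBI+PBS (2.76 to 6.47).

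Txnrd1 encodes thioredoxin reductase 1, which returns oxidised thioredoxin to its active form with NADPH, and it was graded across the 3 libraries in both large classes. Microglia-like cells had 25.5, 56.7 and 100 CPM in sham, TBI+PBS and TBI+IL-25, with ratios of 2.22 (2.00 to 2.46) for TBI+PBS against sham and 1.77 (1.66 to 1.88) for TBI+IL-25 against TBI+PBS. Astrocyte-like cells had 26.8, 58.5 and 132 CPM, with ratios of 2.19 (1.95 to 2.46) and 2.25 (2.10 to 2.42). Its RNA was spread more widely than that of Hmox1 or Srxn1, and neuroblast-like cells had the highest level of the classes in sham, 166 CPM, with 184 and 203 in the injured libraries. Cluster 14 had 152 and 247 CPM and monocyte/macrophage-like cells 99 and 122. In 5 microglia-like clusters held apart, the TBI+PBS to sham ratio was 1.14 to 2.06, with the interval above 1 in 3, and the TBI+IL-25 to sham ratio 1.63 to 2.86, with the interval above 1 in 4. In 4 astrocyte-like clusters these ratios were 1.29 to 2.04, with the interval above 1 in 2, and 1.98 to 3.8, above 1 in 4. The astrocyte-like ratio of TBI+PBS to sham fell under 2-fold with doublets kept (1.84), at the lower clustering resolution (1.80), without the shallow clusters (1.99) and within cluster 1 (1.43), and that of TBI+IL-25 to TBI+PBS at the lower resolution (1.88) and within cluster 1 (1.38). The microglia-like ratio of TBI+PBS to sham was 1.67 within cluster 0.

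Slc7a11 encodes xCT, the cystine-glutamate exchanger that imports cystine for glutathione. In sham astrocyte-like cells held 96% of its UMIs, and the 7 fibroblast-like cells held 1.97% in 0.0803% of the cells. The astrocyte-like share was 54.7% in TBI+PBS against 73.3% in TBI+IL-25. Astrocyte-like cells had 531 CPM in sham against 254 with TBI+PBS and 405 with TBI+IL-25, so both injured libraries lay below sham. TBI+PBS was 0.478-fold sham (0.46 to 0.495), TBI+IL-25 0.762-fold sham (0.739 to 0.786) and 1.6-fold TBI+PBS (1.54 to 1.65), an order unlike that of Hmox1, Srxn1 and Txnrd1. A UMI was found in 46.6%, 27.6% and 37.1% of thinned cells. Within the 4 shared clusters the TBI+PBS to sham ratio was 0.5 to 0.785, with the interval below 1 in 3, and between the injured libraries the ratio of 7 clusters was 0.854 to 1.8, with the interval above 1 in 5. The ratio of TBI+PBS to sham stayed between 0.471 and 0.566 under the alternatives other than the comparison within cluster 1, which gave 0.665.

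Outside astrocyte-like cells, Slc7a11 was found in cells that sham hardly held. Monocyte/macrophage-like cells had 539 CPM in TBI+PBS against 208 in TBI+IL-25, 0.385-fold (0.319 to 0.462). Neutrophil-like cells had 1105 and 1364, cluster 14 654 and 840, and fibroblast-like cells 1926 and 869, 0.452-fold (0.367 to 0.552). The neutrophil-like values rest on 12 and 47 cells and the fibroblast-like values on 23 and 25. Sham had 7 fibroblast-like cells, too few for a comparison, and 161 of their 32910 UMIs were Slc7a11. In microglia-like cells it was 7.08, 13.8 and 33.2 CPM. Free RNA at the scale of the astrocyte markers would give 15, 6.78 and 10.4 CPM, so the sham value was at background. TBI+IL-25 was 2.41-fold above TBI+PBS there (2.13 to 2.73) and 1.51-fold within cluster 2, and cluster 16 held 67.7% of the TBI+PBS and 48.1% of the TBI+IL-25 UMIs, at 95.9 and 264 CPM. The TBI+PBS to sham ratio of microglia-like cells, 1.95, was 0.688 with marker-score classes and 0.747 within cluster 0.

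Gclm and Gclc encode the modifier and catalytic subunits of glutamate-cysteine ligase, the first and limiting enzyme of glutathione synthesis, and both stayed under 2-fold between libraries in the 2 large classes. Astrocyte-like Gclm was 115, 132 and 194 CPM, 1.14-fold and 1.47-fold (1.4 to 1.55) from library to library, and microglia-like Gclm 36.1, 36.4 and 45.5. Gclc was 40.3, 56.1 and 58.2 CPM in astrocyte-like and 55.8, 55.6 and 59.7 in microglia-like cells. Directions of this size turned with the cells compared: astrocyte-like Gclm in TBI+PBS against sham was 0.948 with doublets kept, and within cluster 7 microglia-like Gclm in TBI+IL-25 against sham was 0.82, where the class had 1.26. The microglia-like Gclc ratios were 0.996, 1.07 and 1.07 in the 3 comparisons, and 1.11, 1.12 and 1.23 with median-of-ratios size factors. Gclm in monocyte/macrophage-like cells was 119 CPM in TBI+PBS against 39 in TBI+IL-25, 0.329-fold (0.207 to 0.499). Ependymal-like cells had the highest Gclc of the classes with at least 20 cells in both injured libraries, 136 and 216 CPM, and oligodendrocyte-like cells had Gclm at 176, 187 and 149 CPM.

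Nqo1 encodes a quinone reductase often used as a readout of NRF2, and it did not share the pattern of Hmox1, Srxn1 and Txnrd1. In astrocyte-like cells it was 14.1 CPM in sham (208 UMIs), 9.3 in TBI+PBS (172 UMIs) and 5.89 in TBI+IL-25 (117 UMIs). Each step was downward, 0.661-fold (0.537 to 0.813) and then 0.634-fold (0.497 to 0.806), and TBI+IL-25 was 0.419-fold sham (0.331 to 0.528). Within cluster 1 the ratios were 0.982, 1.04 and 1.02, with intervals between 0.63 and 1.64, and at the lower clustering resolution TBI+IL-25 was 0.767-fold sham. Choroid plexus-like cells, which make cerebrospinal fluid, had 84.2, 44.1 and 54.6 CPM, 0.524-fold in TBI+PBS against sham (0.302 to 0.894). Microglia-like cells had 3, 8 and 7 Nqo1 UMIs in all, so no difference was detectable there. Their 0.153, 0.318 and 0.251 CPM stood beside the 0.487, 0.216 and 0.221 CPM that free RNA would give.

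Nfe2l2 itself, the gene of NRF2, was nearly level over the libraries at 194, 200 and 199 CPM. Microglia-like cells had 271, 256 and 231 CPM, and their TBI+PBS to sham ratio of 0.945 was 1.06 with median-of-ratios size factors. Astrocyte-like cells had 123, 153 and 184 CPM, 1.24-fold and 1.2-fold between successive libraries, although within cluster 1 TBI+PBS was 0.905-fold sham and TBI+IL-25 0.946-fold. The RNA of Nfe2l2 does not report NRF2 protein, which is mainly set by degradation. Cluster 14 had 222 and 241 CPM and monocyte/macrophage-like cells 262 and 258, while neuroblast-like cells were lowest among the larger classes at 39.2, 43.6 and 28.5.

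**Figure D5:**
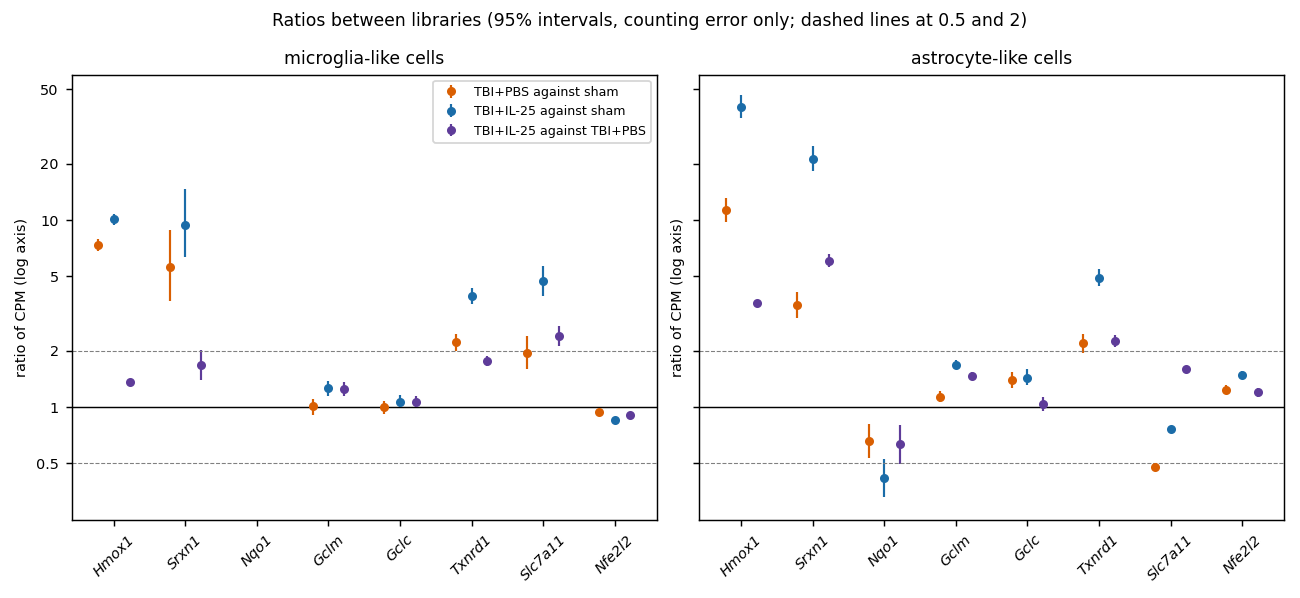
Ratio of CPM between libraries (log axis) for the 8 genes in microglia-like (left) and astrocyte-like cells (right), in the 3 comparisons; bars are 95% intervals, the solid line marks 1 and the dashed lines 0.5 and 2. In astrocyte-like cells Hmox1 reached 40.4 and Srxn1 21.3 in TBI+IL-25 against sham, while Nqo1 lay at 0.419; Nqo1 had too few UMIs in microglia-like cells.

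Set side by side, 7 of the 8 genes could be tested in microglia-like cells, all but Nqo1. Of them 3 were at least 2-fold higher in TBI+PBS than in sham (Hmox1, Srxn1 and Txnrd1), where 6.92% of genes tested were, and none was 2-fold lower (7.78%). Between TBI+IL-25 and TBI+PBS 1 was higher (Slc7a11; 6.39%) and none lower (4.65%), and against sham 4 were higher (Hmox1, Srxn1, Txnrd1 and Slc7a11; 11.9%) and none lower (15.4%). In astrocyte-like cells all 8 were tested: 3 were higher in TBI+PBS than in sham (Hmox1, Srxn1 and Txnrd1; 6.09%) and 1 lower (Slc7a11; 6.38%), the same 3 genes were higher in TBI+IL-25 than in TBI+PBS (5.5%) and none lower (12.7%), and against sham these 3 were higher (11.4%) and Nqo1 lower (23.5%). The median log2 ratio of the members was 0.96, 0.46 and 1.97 in microglia-like cells for TBI+PBS against sham, TBI+IL-25 against TBI+PBS and TBI+IL-25 against sham, beside -0.16, -0.06 and -0.20 over all genes tested, and 0.39, 0.62 and 0.66 in astrocyte-like cells beside -0.06, -0.22 and -0.30. Gclm, Gclc and Nfe2l2 were under 2-fold in each of these comparisons.

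The genes that control NRF2 were counted in both large classes. Of 13 control genes tested in astrocyte-like cells, 3 were at least 2-fold higher in TBI+PBS than in sham and none lower (6.09% and 6.38% of all genes tested), 1 was higher in TBI+IL-25 than in TBI+PBS (5.5%), and 4 were higher in TBI+IL-25 than in sham (11.4%). Bach1, the haem-sensing repressor, went from 19.4 to 39.7 and 109 CPM, and Maff, a small MAF partner of NRF2 and BACH1, from 0.338 to 15.6 and 27.9. Mafk, another small MAF, was 2.5-fold higher in TBI+PBS than in sham (1.73 to 3.68). Keap1 in astrocyte-like cells had ratios of 1.07, 0.525 and 0.56 in the 3 comparisons, and in microglia-like cells stood at 61.8, 61.3 and 46.2 CPM. Microglia-like cells had 1 of 13 control genes at least 2-fold higher in each comparison, Maff, and none lower (6.92%, 6.39% and 11.9% of all genes higher in the 3 comparisons), with Bach1 at 0.97, 1.52 and 1.47.

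Other glutathione and thioredoxin genes differed in both directions in astrocyte-like cells. There 4 of 22 were at least 2-fold higher in TBI+IL-25 than in sham and 4 lower, beside 11.4% and 23.5% of all genes, and their median log2 ratio was -0.12 beside -0.30. Gsr, which regenerates glutathione, was 2.66-fold higher in TBI+PBS than in sham (2.39 to 2.96) and 2.21-fold higher in TBI+IL-25 than in TBI+PBS (2.08 to 2.35), and Txn1, thioredoxin, went from 84.2 to 165 and 405 CPM. Txnip, an inhibitor of thioredoxin, stood at 64.2 CPM in sham and 20.4 in each injured library. In microglia-like cells 3 of 22 were higher in TBI+PBS than in sham (6.92% of all genes), 0 differed 2-fold between the injured libraries (6.39% higher and 4.65% lower) and 4 were higher in TBI+IL-25 than in sham (11.9%), with none lower; Glrx, a glutaredoxin, was 5.29-fold higher in TBI+PBS than in sham (4.77 to 5.87). Of 7 genes of NADPH supply, 1 was higher in TBI+PBS than in sham in microglia-like cells (6.92% of all genes), Tkt at 2.1-fold (2.00 to 2.20), and 1 was higher in TBI+IL-25 than in sham in astrocyte-like cells (11.4%), Me1 at 2.05-fold (1.91 to 2.21).

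Haem and iron genes beside Hmox1 were followed because haem oxygenase frees iron. Of 18 tested in microglia-like cells, 4 were at least 2-fold higher and 1 lower in TBI+PBS than in sham (6.92% and 7.78% of all genes), 0 either way between the injured libraries (6.39% and 4.65%), and 3 higher and 3 lower in TBI+IL-25 than in sham, near the 11.9% and 15.4% of all genes. Fth1, the ferritin heavy chain that stores iron, had 2227, 5497 and 8571 CPM, and Tfrc, the transferrin receptor that imports it, was 2.68-fold higher in TBI+PBS than in sham (2.27 to 3.17). Slc40a1, the iron exporter ferroportin, went from 193 to 65.8 and 62.9 CPM. Hmox2, the constitutive haem oxygenase, had ratios of 0.837, 0.725 and 0.607 in microglia-like and 0.887, 0.596 and 0.529 in astrocyte-like cells, and Blvrb, a biliverdin reductase, 1.07, 1.31 and 1.39 in microglia-like cells. Ftl1, the ferritin light chain, was 1.77-fold higher in TBI+PBS than in sham and 0.788-fold in TBI+IL-25 against TBI+PBS. In astrocyte-like cells 0 of 20 were higher and 1 lower in TBI+PBS than in sham (6.09% and 6.38% of all genes), with Fth1 at 1817, 2648 and 4598 CPM. Fth1 and Ftl1 have near-identical pseudogene copies, and how their reads were assigned is not given in the sources used here.

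Further stress lists were counted for comparison with the members, beside shares over all genes in TBI+PBS against sham of 6.92% higher and 7.78% lower in microglia-like and 6.09% and 6.38% in astrocyte-like cells. Of 12 other NRF2-linked genes in microglia-like cells, 2 were at least 2-fold higher and 2 lower in TBI+PBS than in sham, and in astrocyte-like cells 2 of 12 higher and 0 lower; Procr there was 6.55-fold higher in TBI+IL-25 than in TBI+PBS (4.67 to 9.41), while Akr1b10 was 0.413-fold (0.374 to 0.457). Of 10 oxidase and superoxide genes in microglia-like cells, 1 was higher and 1 lower in TBI+PBS than in sham, the higher one being Cybb, the catalytic subunit of the phagocyte oxidase, from 3.21 to 22.7 CPM. Of ATF4 response genes, 4 of 15 were higher and 1 lower in microglia-like and 8 of 14 higher in astrocyte-like cells in TBI+PBS against sham; Cebpb there was 9.8-fold higher (8.79 to 11.0).

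Immediate early genes, which tissue dissociation also raises, moved with Hmox1 and Srxn1 in astrocyte-like cells. There 11 of 16 were at least 2-fold higher in TBI+PBS than in sham, 5 were higher in TBI+IL-25 than in TBI+PBS and 12 were higher in TBI+IL-25 than in sham, with none lower, beside 6.09%, 5.5% and 11.4% of all genes, and their summed level was 1343, 4135 and 7401 CPM. Socs3, a feedback inhibitor of cytokine signalling, was 49.6-fold higher in TBI+PBS than in sham (40.0 to 62.3). In microglia-like cells 5, 3 and 8 of 16 were at least 2-fold higher in these 3 comparisons and none lower, beside 6.92%, 6.39% and 11.9% of all genes higher. The list there summed to 25881, 19629 and 25771 CPM, while Hmox1 was at 41.8, 307 and 421. The part of dissociation in the Hmox1 and Srxn1 differences was not tested.

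Likeness of pattern was described with Pearson's r of log2(CPM + 10) over 20 class-by-library units, among 15252 genes; units share libraries, and no p is given. The genes most like Hmox1 were Itga5 (0.92), Wdr1 (0.89) and Trib1 (0.88), and its r with Srxn1 was 0.72 and with Nqo1 -0.20. Srxn1 was most like Fosl1 (0.94), Tiparp (0.92) and Il11 (0.91). Slc7a11 was most like Gm37498 (0.94), Hgf (0.94) and Eps8 (0.93), and Nfe2l2 like Vwa5a (0.93), Ctsb (0.92) and Prkcd (0.92). Nqo1 was most like Mcee (0.96), 1700088E04Rik (0.95) and Rdh5 (0.94). The nearest genes of Gclm were Fam171a1, Slc6a8 and Plekhg1 (0.87 to 0.88), those of Gclc Mafg, Tmem170b and Pigu (0.86 to 0.90), and those of Txnrd1 Eif2s2, Ywhag and 1110038B12Rik (0.86 to 0.87).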

How the data were processed

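Raw UMI counts per gene and barcode were used as deposited by the authors, in 3 unnormalized matrices. Per the file headers, the TBI+IL-25 matrix was written by Cell Ranger 7.2.0 and the others by 7.1.0. GRCm39, Seurat 4.4.0, bcl2fastq 5.0.1 and Cell Ranger 7.2.0 are listed in the submitters' processing notes. Collagenase digestion, red cell lysis and dead cell removal came before 10x 3′ library preparation for 8000 expected cells, per the labels' protocols. How barcodes were called is not given in the sources used here.

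Filters were a minimum of 500 UMIs and 300 genes and a mitochondrial share of 20% at most. A Scrublet score of 0.2 removed 201, 297 and 640 doublets (2.25%, 2.81% and 4.5%) from the sham, TBI+PBS and TBI+IL-25 libraries. Cells were clustered jointly (2000 variable genes, 30 principal components, 15 neighbours, Leiden resolution 1) without integration, with scanpy 1.11.5, leidenalg 0.10.2, python-igraph 0.11.9, scikit-learn 1.9.0, NumPy 2.4.6, SciPy 1.17.1, pandas 2.3.3, Matplotlib 3.10.9 and Python 3.11.15. A cluster got the class with most of its markers present (in at least 20% of cells, at 2 times the median over clusters), with 3 markers at least.

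UMIs were summed per class and library and scaled to CPM, with exact Poisson intervals. Ratios carry exact conditional binomial and shares Clopper-Pearson intervals. Only the ratio intervals were tried on simulated data, drawn as Poisson counts, which cannot show how they behave on counts with a wider spread. PCR and capture error, and the spread between animals, are outside all of these intervals. A gene was tested with at least 20 UMIs over both libraries of a class with at least 20 cells in each, and counted as higher or lower from 2-fold. Clusters needed 50 cells. Free RNA was scaled by the microglia markers, or in microglia-like cells by the astrocyte markers. The text names all 8 members, up to 3 genes a direction of each list ranked by the interval bound nearest 1, 3 genes most like each member, and Keap1, Bach1, Hmox2, Blvrb, Fth1 and Ftl1. Genes that name a cluster or describe the macrophage-like class (Arg1, Spp1) were chosen after their values were seen. The members, lists and comparisons were chosen with earlier results of these data known. Alternatives were another scaling, count minimum, fold, resolution, mitochondrial limit, doublets kept, marker-score classes, equal weight of cells, free RNA subtracted, shallow clusters left out, 1 shared cluster, and, added after seeing the data, cluster 14 counted as astrocyte-like.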

Additional observations from a re-analysis of the deposited data

Results flagged for a closer look

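Each result here is at least 2-fold, with its interval off 1, in opposite directions in different classes under the same comparison. None of these differences between classes was tested, because there was 1 library a group.

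Hmox1 in TBI+IL-25 against TBI+PBS had a ratio of 3.59 in astrocyte-like, 3.64 in oligodendrocyte-like, 4.02 in endothelial-like and 2.12 in choroid plexus-like cells, and of 0.23 in monocyte/macrophage-like cells. The astrocyte-like ratio was 1.99 with marker-score classes, 1.96 with cells weighted equally and 1.86 at a resolution of 0.5. It was 1.9 with cluster 14 counted as astrocyte-like and 1.26 within cluster 1, but larger without the shallow clusters. The macrophage-like values rest on 249 and 107 cells and the endothelial-like values on 220 and 48, and with doublets kept the endothelial-like ratio was 1.43. In TBI+PBS the oligodendrocyte-like, endothelial-like and choroid plexus-like levels of 17.9, 44.8 and 25.8 CPM stood beside 27.9, 37.1 and 31 CPM that free RNA would give.

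Slc7a11 in TBI+IL-25 against TBI+PBS had a ratio of 2.41 in microglia-like and 3.99 in oligodendrocyte-like cells (7 and 36 UMIs). The first was 1.51 within cluster 2 and the second 1.95 with doublets kept, and the oligodendrocyte-like levels of 3.21 and 12.8 CPM lay under the 11.7 and 14.7 CPM that free RNA would give. In monocyte/macrophage-like cells the ratio was 0.385 (0.53 with cells weighted equally), in fibroblast-like cells 0.452 and in T cell-like cells 0.21 (19 and 4 UMIs), where 64.4 and 13.5 CPM stood beside 22.4 and 45.3 CPM of free RNA. Slc7a11 in TBI+PBS against sham had a ratio of 3.56 in neuroblast-like cells (6 and 19 UMIs) and 0.478 in astrocyte-like cells. The neuroblast-like ratio was 1.35 with doublets kept and 1.05 with marker-score classes, and its levels of 3.02 and 10.8 CPM lay under the 19.9 and 13.5 CPM of free RNA.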

How the results depend on the processing

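Of 138 recounts of the 12 counts of members past 2-fold, 125 stayed within 1.5 times the reported count and 13 did not. In microglia-like cells 1 member was higher in TBI+IL-25 than in TBI+PBS, but 2 with doublets kept and 3 with marker-score classes, with cells weighted equally or at a fold of 1.5. In astrocyte-like cells 1 member was lower in TBI+PBS than in sham, but 0 with doublets kept, with marker-score classes, with cells weighted equally or with cluster 14 counted as astrocyte-like (added after seeing the data), and 2 at a fold of 1.5. There 3 were higher in TBI+IL-25 than in TBI+PBS, but 1 at a resolution of 0.5, and 0 were lower, but 1 at a fold of 1.5. Hmox1 there also fell under 2-fold with marker-score classes (1.99), cells weighted equally (1.96) and cluster 14 counted in (1.9). Those counts stayed within 1.5 times the reported one. Against sham 1 was lower in TBI+IL-25, but 0 with median-of-ratios size factors or at a resolution of 0.5. Of 933 values of the 109 ratios under alternatives, 744 stayed within the reported interval, and 50 lay on the other side of 1, among them Slc7a11, Gclm, Gclc and Nfe2l2 in microglia-like cells. Of these 50, 47 belonged to ratios under 2-fold as reported and 3 to ratios past it: Nqo1 in astrocyte-like cells in TBI+IL-25 against sham, 0.419 as reported and 1.02 within cluster 1, and Hmox1 with free RNA subtracted, which left 0 in place of 2.08 in oligodendrocyte-like cells (TBI+PBS against sham) and 0 in place of 2.81 in neuroblast-like cells (TBI+IL-25 against sham). The last 2 follow from levels at or under the free RNA; the other causes were not tested. No paired analysis was possible because each group has 1 library, and for the same reason no replicate could be left out. Few UMIs, near the level of free RNA, limit Nqo1 in microglia-like cells, and depth limits all genes in the classes with under 50 cells.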
